A study of Mus musculus with 2 samples.

Results

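The collagen genes were followed through the CD11b+Ly6G+ cells sorted from Lewis lung carcinoma (LLC) tumors of Smad3-WT and Smad3-KO mice. Members were the rows of the deposited gene list whose symbol has the form of Col, a number, the letter a and a second number, which gave 44 of 31053 genes. The rule reads the symbol only. In the cells kept for analysis, 24 members had at least 20 unique molecular identifiers (UMIs, each of which marks a captured transcript molecule), 12 had 1 to 19 and 8 had 0.

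Collagen chains are secreted, wind around each other as a helix and assemble into the fibers and sheets of the extracellular matrix. Fibrillar chains of types I, III and V form the tension-bearing fibers that fibroblasts lay down, type IV chains form the network of basement membranes, type VI chains form beaded filaments close to cells, FACIT chains sit on the surface of fibers, and the multiplexins (types XV and XVIII) lie at basement membranes. Smad3 carries signals of TGF-β to the nucleus and is known as an activator of fibrillar collagen genes in fibroblasts. Neutrophils, which the sort was set to collect, are not known as a source of collagen.

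Each genotype was represented by 1 library, prepared with a 5′ kit from a pool of 8 tumors, so no replicate error exists and no genotype difference was tested. Hosts were C57BL/6 mice (C57BL/6 J in the methods) aged 8 to 12 weeks, either Smad3+/+ (Smad3-WT) or Smad3-/- (Smad3-KO, with exon 8 deleted and exon 7 disrupted in all host cells), and both carried subcutaneous LLC tumors. LLC is a mouse lung carcinoma line, so the tumor cells themselves were not host cells in either group. Values are UMIs scaled to a fixed total (CPM, the usual counts-per-million unit) with exact Poisson intervals, shares with exact Clopper-Pearson intervals, and ratios with exact intervals from the split of the UMIs, all at 95% and all covering counting error only. A tag of a 5′ library marks a molecule whatever its length, so CPM was not divided by transcript length. A gene counted as past 2-fold when it had at least 20 UMIs over both groups compared and a ratio of at least 2 or at most 0.5.

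Depth differed between the libraries, with 4116 barcodes and 23951400 UMIs for Smad3-WT against 2514 barcodes and 4214290 UMIs for Smad3-KO. Of these, 3902 and 2433 cells were kept, with a median of 1770.5 and 1199 UMIs. Smad3 itself was read at 12.7 CPM (299 UMIs) in Smad3-WT and 77.4 CPM (321 UMIs) in Smad3-KO cells, but 5′ tags lie outside the deleted part of the gene, so these values check nothing about the genotype. The same 73 barcode sequences occurred in both libraries, and in 47 of these pairs the Smad3-WT cell was at least 10 times deeper, while the Smad3-KO cell was in 13. Of the kept cells, the shallower member of such a pair was found in 6 of 47 Smad3-WT fibroblast-like cells, 3 of 603 Smad3-WT carcinoma-like cells, 19 of 34 Smad3-KO carcinoma-like cells and 0 of 60 Smad3-KO fibroblast-like cells, and results are given with and without these cells. Classes were named from marker genes that include no collagen, and no collagen gene was used for clustering. Against the label of neutrophils, only 46.6% of Smad3-WT and 44.3% of Smad3-KO cells were neutrophil-like, and B-like cells were 23.3% of the Smad3-KO library but 2 cells of the Smad3-WT library. Before its own analysis the paper filtered the sorted cells by the neutrophil markers S100a9, S100a8, Csf3r and Il1rn, a step not applied here.

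Over all kept cells, collagen transcripts were a larger part of the Smad3-KO library. The 44 genes together were at 970 CPM (957 to 982; 22836 UMIs) in Smad3-WT cells and at 5648 CPM (5576 to 5721; 23422 UMIs) in Smad3-KO cells. The ratio was 5.83 (5.72 to 5.93), and 5.92 (5.82 to 6.03) without the shallower cell of each shared barcode. The ratio was 3.80 when cells of 20000 UMIs or more were left out and 2.29 when each cell was given equal weight. In a sum over all cells, fewer cells of a type and less RNA per cell cannot be told apart. Of the 24 members with at least 20 UMIs, 17 had a ratio of at least 2, beside 22.5% of all genes tested, and 3 had a ratio of at most 0.5, beside 22.6% of all genes. The median ratio of the members was 4.04, against 0.979 over all genes. The members that were lower in the Smad3-KO library were Col8a1, a chain of a short-chain network collagen (461 UMIs against 9), Col7a1, the chain of the anchoring fibrils of epithelia (145 against 4 UMIs), and Col18a1, the source of endostatin (870 against 59 UMIs), with ratios of 0.111 (0.0504 to 0.212), 0.157 (0.0421 to 0.410) and 0.385 (0.291 to 0.502). Of their Smad3-WT UMIs, 355 of Col8a1, 119 of Col7a1 and 702 of Col18a1 lay in carcinoma-like cells. Col16a1 and Col4a1 had ratios of 0.609 (0.465 to 0.787) and 0.805 (0.695 to 0.927), and Col4a2 and Col24a1 had intervals that include 1.

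The family was dominated by 3 fibrillar genes. Col3a1, the chain of type III collagen (chr1:45311538-45349706, plus strand), had 16129 UMIs over both libraries. Col1a1 (chr11:94936224-94953042, plus strand) and Col1a2 (chr6:4504814-4541544, plus strand), the chains of type I collagen, had 10498 and 8258 UMIs. Together they made up 75.4% of 46258 collagen UMIs, and the remaining 21 members with at least 20 UMIs ranged from 1773 UMIs for Col4a1 to 21 for Col6a4. Over all cells, Col3a1 was at 303 CPM in Smad3-WT and 2168 CPM in Smad3-KO, Col1a1 at 172 and 1555 CPM, and Col1a2 at 151 and 1132 CPM, with ratios of 7.16 (6.94 to 7.38), 9.04 (8.69 to 9.41) and 7.48 (7.16 to 7.82). Positions are in GRCm38 with the GENCODE M21 annotation.

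Among the members with at least 20 UMIs, 9 were fibrillar chains, 2 type IV, 6 type VI, 3 FACIT, 2 multiplexins, 1 a network chain (Col8a1) and 1 of another kind (Col7a1). The 12 members with 1 to 19 UMIs were Col9a3 with 18, Col23a1 with 13, Col20a1 with 12, Col4a4 with 6, Col4a5 and Col17a1 with 5 each, Col22a1 with 4, Col4a3 with 3, Col10a1 and Col2a1 with 2 each, and Col9a2 and Col8a2 with 1 each. The 8 members with 0 UMIs in kept cells were Col9a1, Col19a1, Col4a6, Col11a1, Col25a1, Col26a1, Col28a1 and Col13a1. Of the cartilage chains, Col2a1, Col9a1, Col9a2, Col10a1 and Col11a1 were thus at or near the floor of detection, which a count of 0 sets at 3 UMIs. Col9a3 and Col11a2 were above it, with 18 and 45 UMIs. Col6a4 and Col11a2, with 21 and 45 UMIs, had no class in which they stood out: of 17 Smad3-KO UMIs of Col6a4, 8 lay in B-like and 4 in T or NK-like cells, and of 30 Smad3-WT UMIs of Col11a2, 12 lay in carcinoma-like and 5 in neutrophil-like cells.

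The windows of 250 bases before the RefSeq start of Col3a1 and Col1a2 are shown because both were among the leading genes of fibroblast-like cells, while Col3a1 was also read in carcinoma-like cells and Col1a2 hardly was, and the bases shared by the starts of Col4a1 and Col4a2 because the 2 type IV genes face away from each other on chromosome 8. Sequences are from RefSeq on GRCm38, 5′ to 3′ on the plus strand, and a window was at hand for 35 of 44 members. In the first 2, capitals mark CAGAC (letters that Smad proteins can bind), CCAAT and TATAAA on either strand, and in the last the 22 bases from the first base of Col4a2 to the first base of Col4a1.
Col3a1, chr1:45311288-45311537: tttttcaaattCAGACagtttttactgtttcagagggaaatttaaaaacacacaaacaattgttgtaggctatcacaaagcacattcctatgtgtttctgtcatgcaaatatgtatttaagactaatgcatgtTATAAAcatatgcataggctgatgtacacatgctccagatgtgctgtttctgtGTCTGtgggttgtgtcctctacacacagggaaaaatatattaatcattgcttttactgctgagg
Col1a2, chr6:4505368-4505617: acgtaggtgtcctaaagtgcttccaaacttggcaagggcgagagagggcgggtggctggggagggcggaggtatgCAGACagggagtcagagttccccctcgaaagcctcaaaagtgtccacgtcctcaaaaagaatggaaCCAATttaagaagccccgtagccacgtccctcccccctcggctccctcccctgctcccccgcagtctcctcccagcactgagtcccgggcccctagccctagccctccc
Col4a1 and Col4a2, chr8:11312801-11312830: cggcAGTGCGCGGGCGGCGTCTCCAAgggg

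The Col3a1 window held CAGAC 2 times, with its first base 239 and 64 bases before the start, and TATAAA once, 117 bases before it. The Col1a2 window held CAGAC once, 175 bases before the RefSeq start, and CCAAT once, 109 bases before it. That start, and so this window, lies inside the longer GENCODE span given above for Col1a2. None of these motifs overlapped another in these windows. Of 32851 windows of 250 bases before gene starts, 42.2% held CAGAC on either strand, 33.8% held CCAAT and 12.4% held TATAAA, and of the 38 windows of collagen genes the shares were 44.7%, 34.2% and 13.2%. The letters are thus about as frequent before collagen genes as before all genes, and a match is a description of the sequence only. The transcripts of Col4a1 and Col4a2 overlap by 22 bases on opposite strands. The sources used here do not state whether counting used strand, and how UMIs from these bases were assigned to the 2 genes was not checked.

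**Figure D1:**
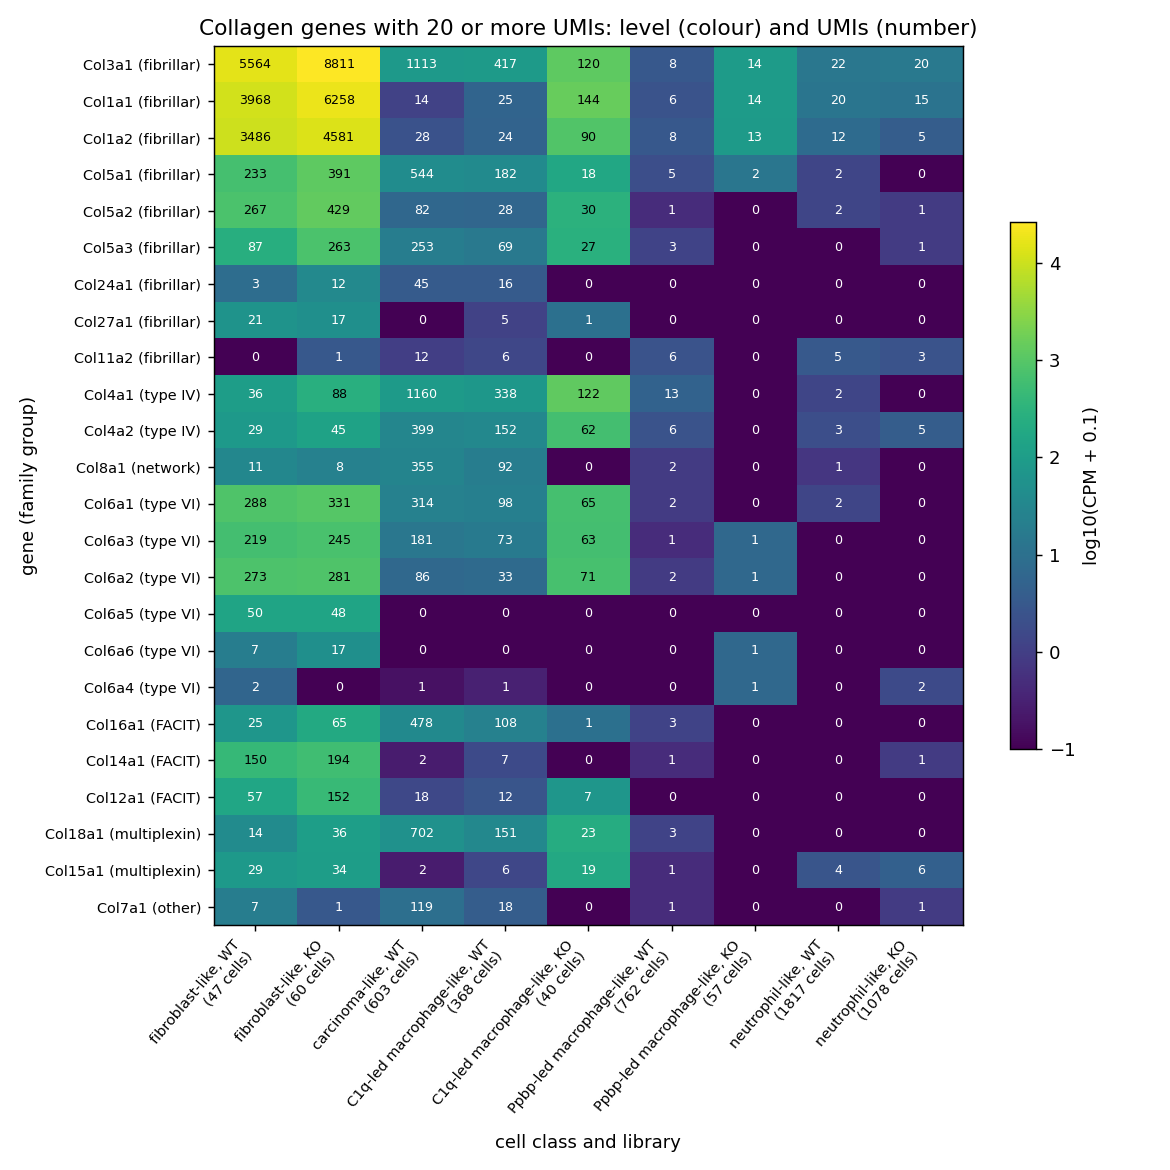
Level of the 24 collagen genes with at least 20 UMIs in 9 combinations of cell class and library. Colour is log10 of CPM plus 0.1 and the number in each field is the count of UMIs, and the fibrillar genes Col3a1, Col1a1 and Col1a2 stand out in fibroblast-like cells of both libraries while Col4a1, Col18a1, Col16a1, Col8a1 and Col7a1 are also read in Smad3-WT carcinoma-like cells.

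Most collagen transcripts came from few cells. Fibroblast-like cells, a cluster in which 13 of 13 fibroblast markers passed and which was led by Dcn, Serping1 and collagen genes, were 1.20% of Smad3-WT cells (47 cells) and 2.47% of Smad3-KO cells (60 cells). They held 65.0% (64.3 to 65.6) of the collagen UMIs of the Smad3-WT library and 95.3% (94.99 to 95.54) of those of the Smad3-KO library. Carcinoma-like cells, led by Rhox5, Krt8 and Wfdc2, were 15.5% of Smad3-WT cells and held 25.9% (25.4 to 26.5) of its collagen UMIs. The macrophage-like cluster led by C1qa, C1qb and C1qc held 8.18% (7.83 to 8.54) in Smad3-WT and 3.68% (3.45 to 3.93) in Smad3-KO cells. Collagen UMIs of the other classes were at most 0.346% of those of their library. Fibroblast-like cells free of 7 macrophage and carcinoma genes, C1qa, C1qb, C1qc, Krt8, Krt18, Wfdc2 and Rhox5, held 38.8% of all Smad3-WT collagen UMIs. Those with fewer than 2 markers of each of the carcinoma, macrophage and neutrophil lists held 9.48%. The total was that of all kept Smad3-WT cells, so leaving cells out of the class could only lower its share.

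Collagens took up a larger part of the transcripts of fibroblast-like cells in the Smad3-KO library than in the Smad3-WT library when all cells of the class were counted. In 47 Smad3-WT cells with 347334 UMIs the family was at 42708 CPM (42024 to 43401; 14834 UMIs), and in 60 Smad3-KO cells with 335347 UMIs it was at 66540 CPM (65670 to 67419; 22314 UMIs). The ratio of Smad3-KO to Smad3-WT was 1.56 (1.53 to 1.59), and 1.57 (1.53 to 1.60) without the 6 shallower Smad3-WT cells. This direction did not hold in subsets of the fibroblast-like cells chosen for few transcripts of carcinoma, macrophage or neutrophil genes. Those subsets also differed in depth, and its part in the ratios was not tested. Median UMIs per cell were 6601 (Smad3-WT) and 4325 (Smad3-KO) in the whole class. They were 4134 and 4373 in the first subset below, and 2043 and 3156 in the second. In the 25 Smad3-WT and 55 Smad3-KO cells without a UMI of C1qa, C1qb, C1qc, Krt8, Krt18, Wfdc2 or Rhox5, the family was at 74020 and 66760 CPM, and the ratio was 0.902 (0.880 to 0.925). This choice of cells was made after the data were seen. The 13 and 31 cells with fewer than 2 markers of each of the carcinoma, macrophage and neutrophil lists had 34954 and 137742 UMIs. In them the family was at 61938 and 62167 CPM, with a ratio of 1.004 (0.957 to 1.05). Markers of B, T or NK and dendritic cells did not enter this choice.

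Markers of other cell types differed between the libraries in the same class, and their part in the collagen ratio was not tested. Over all fibroblast-like cells the 9 macrophage markers summed to 2560 CPM in Smad3-WT and 1163 CPM in Smad3-KO, the 8 neutrophil markers to 2631 and 1309 CPM, and the 8 carcinoma markers to 227 and 113 CPM, with all 9 macrophage and all 8 neutrophil markers detected in both. Lymphoid lists went the opposite way, the 5 B markers at 5.76 CPM (2 UMIs) and 170 CPM (57 UMIs) and the 7 T or NK markers at 8.64 CPM (3 UMIs) and 68.6 CPM (23 UMIs), as did the 7 dendritic markers at 34.5 CPM (12 UMIs) and 65.6 CPM (22 UMIs). In single cells the macrophage sum ran from 0 to 13702 CPM in Smad3-WT and from 0 to 8858 CPM in Smad3-KO, and the neutrophil sum from 0 to 98404 and from 0 to 11416 CPM. The macrophage sum was uneven across its markers. Apoe held 320 of its 390 Smad3-KO UMIs. Of 8 macrophage markers with at least 20 UMIs, only Apoe was higher in Smad3-KO, at 954 against 481 CPM. C1qa, C1qb and C1qc had 159, 212 and 170 UMIs in Smad3-WT against 5, 4 and 8 in Smad3-KO. Dividing Smad3-KO by Smad3-WT levels gave a median of 0.0704 over these 8 markers. Of the carcinoma markers, Krt7, Epcam and Perp were at 0 in Smad3-WT fibroblast-like cells, and only Cav1 was above 0 in Smad3-KO cells. The 13 fibroblast markers summed to 9040 CPM in Smad3-WT and 15453 CPM in Smad3-KO, a ratio of 1.71 (1.63 to 1.79), and all 13 were higher in Smad3-KO. In the cells without the 7 genes named above, the fibroblast sums were 16651 and 16207 CPM and the macrophage sums 460 and 1035 CPM. The macrophage sums hold no C1qa, C1qb or C1qc there, by the choice of cells. The part of Apoe in these sums was not tested. Itgam, which encodes the CD11b of the sort, had 60 UMIs in the Smad3-WT class and 5 in that of Smad3-KO.

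**Figure D2:**
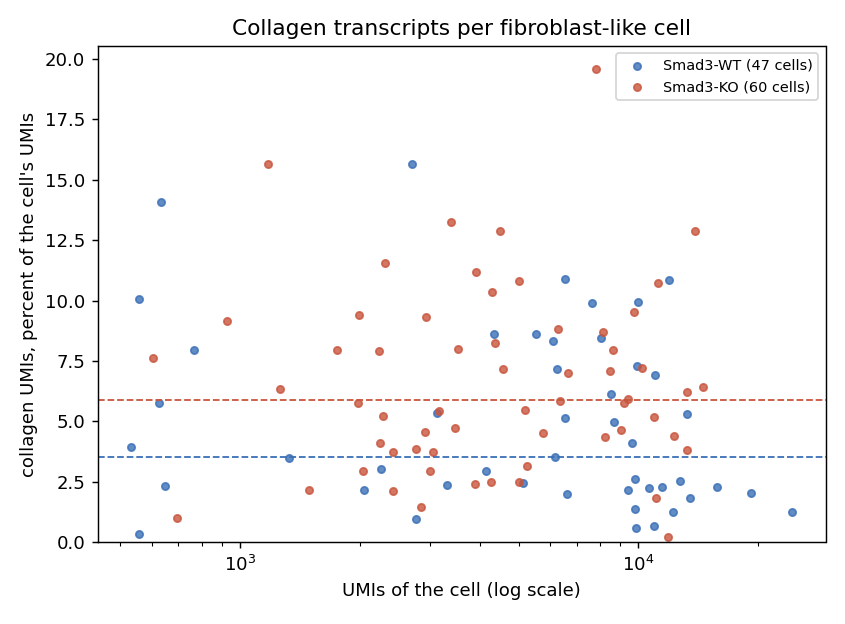
Percent of a cell's UMIs that came from collagen genes against its total UMIs, for 47 Smad3-WT and 60 Smad3-KO fibroblast-like cells (each point is a cell, the dashed lines are the medians of 3.52% and 5.87%). The ranges of both libraries overlap over most of their length.

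Single cells varied widely around these sums. Collagen genes took 0.358% of the UMIs of the lowest Smad3-WT fibroblast-like cell, 3.52% of the median cell and 15.7% of the highest, and the corresponding Smad3-KO values were 0.219%, 5.87% and 19.6%. The cells of both libraries overlapped, and 20 of 47 Smad3-WT and 37 of 60 Smad3-KO cells were over 5%. Without the 6 shallower cells, the Smad3-WT values were 0.587%, 3.48% and 15.7%. The cell with the most collagen UMIs held 8.71% of those of its class in Smad3-WT and 8.02% in Smad3-KO. Col3a1 was the leading collagen in 34 of 47 and in 51 of 60 cells, and Col3a1, Col1a1 and Col1a2 were all detected in 46 and 58 cells. Cells are not replicates, so these spreads carry no test.

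The major fibrillar genes followed the family. Col3a1 was at 16019 CPM in Smad3-WT and 26274 CPM in Smad3-KO fibroblast-like cells (5564 and 8811 UMIs), a ratio of 1.64 (1.59 to 1.70). Col1a1 was at 11424 and 18661 CPM (3968 and 6258 UMIs), a ratio of 1.63 (1.57 to 1.70). Col1a2 was at 10036 and 13661 CPM (3486 and 4581 UMIs), a ratio of 1.36 (1.30 to 1.42). All 3 were thus higher in the Smad3-KO cells of the whole class, and none passed 2-fold. In the cells free of the 7 macrophage and carcinoma genes, the ratios of Col3a1, Col1a1 and Col1a2 were 0.966 (0.928 to 1.01), 0.880 (0.839 to 0.923) and 0.771 (0.731 to 0.813). The 2 type I chains, which join in the same molecule, stood at 1.14 (1.09 to 1.19) Col1a1 UMIs per Col1a2 UMI in Smad3-WT and 1.37 (1.31 to 1.42) in Smad3-KO fibroblast-like cells, while Col3a1 per Col1a1 was 1.40 and 1.41.

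Of 19 members with at least 20 UMIs in fibroblast-like cells, 6 had a Smad3-KO to Smad3-WT ratio of at least 2, beside 9.36% of all genes tested, and 0 had a ratio of at most 0.5, beside 9.3%. The median ratio was 1.63 (0.993 over all genes), and 17 of 19 were above 1. Without the 6 shallower Smad3-WT cells the counts were again 6 and 0, beside 9.76% and 9.33% of all genes. In the cells free of the 7 genes, 3 of 19 had a ratio of at least 2 and 0 a ratio of at most 0.5, beside 9.99% and 6.29% of all genes. In the cells with fewer than 2 markers of each of the carcinoma, macrophage and neutrophil lists, 2 of 15 had a ratio of at least 2. None had a ratio of at most 0.5, and the shares of all genes were 13.5% and 7.06%.

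Col5a3 had the highest of these ratios in the whole class. It encodes the rarest of the type V chains, a minor fibrillar chain that joins Col5a1 and Col5a2 in some tissues (chr9:20770050-20815067, minus strand), and it was at 250 CPM in Smad3-WT and 784 CPM in Smad3-KO (87 and 263 UMIs). The ratio was 3.13 (2.45 to 4.04), and it was 2.92 (2.003 to 4.40) in the cells free of the 7 genes, with 31 and 230 UMIs. Col5a1 and Col5a2, the main type V chains that help to set the width of fibers, had ratios of 1.74 (1.47 to 2.05) and 1.66 (1.43 to 1.95) in the whole class and of 1.11 (0.902 to 1.37) and 0.951 (0.788 to 1.15) in those cells. Col5a3 is thus past 2-fold in both sets of cells while the other 2 type V chains are in neither.

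The FACIT gene Col12a1, which links fibers to their surroundings and is known from tissue under tension (chr9:79598991-79718831, minus strand), was at 164 CPM in Smad3-WT and 453 CPM in Smad3-KO (57 and 152 UMIs). Its ratio was 2.76 (2.02 to 3.81) in the whole class and 2.03 (1.32 to 3.26) in the cells free of the 7 genes. It was 0.987 (0.465 to 2.33) in the cells with fewer than 2 markers of each of the carcinoma, macrophage and neutrophil lists. Col16a1, a FACIT gene, was at 72.0 and 194 CPM (25 and 65 UMIs), a ratio of 2.69 (1.67 to 4.46) that was 1.58 (0.866 to 3.07) in the cells free of the 7 genes. Col14a1, which binds to fibers and limits their growth, was at 432 and 579 CPM (150 and 194 UMIs), a ratio of 1.34 (1.08 to 1.67) in the whole class and of 0.827 (0.641 to 1.07) in the cells free of the 7 genes.

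The basement membrane genes were minor in fibroblast-like cells. Col4a1 (chr8:11198423-11312826, minus strand) was at 104 CPM in Smad3-WT and 262 CPM in Smad3-KO (36 and 88 UMIs), a ratio of 2.53 (1.70 to 3.84) that remained at 2.17 (1.22 to 4.15) in the cells free of the 7 genes and at 2.07 (0.887 to 5.92) in the smaller set. Its partner Col4a2 (chr8:11312805-11449287, plus strand) was at 83.5 and 134 CPM (29 and 45 UMIs), a ratio of 1.61 (0.986 to 2.66), and of 1.15 (0.616 to 2.29) in the cells free of the 7 genes. Col18a1 (chr10:77052178-77166548, minus strand) was at 40.3 and 107 CPM with 14 and 36 UMIs, a ratio of 2.66 (1.40 to 5.35), and of 1.97 (0.807 to 5.79) on 6 and 30 UMIs in the cells free of the 7 genes. Col15a1, the other multiplexin, was at 83.5 and 101 CPM, with a ratio of 1.21 (0.718 to 2.07).

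The common type VI genes had ratios close to 1. Col6a1, Col6a2 and Col6a3, which form the common type VI molecule, had ratios of 1.19 (1.01 to 1.40), 1.07 (0.899 to 1.26) and 1.16 (0.962 to 1.40) in the whole class, at 631 to 829 CPM in Smad3-WT and 731 to 987 CPM in Smad3-KO, and of 0.829 (0.673 to 1.02), 0.736 (0.592 to 0.919) and 0.874 (0.675 to 1.14) in the cells free of the 7 genes. Col6a5, a chain that can stand in for Col6a3, was at 144 and 143 CPM, a ratio of 0.994 (0.655 to 1.51). Col6a6, another such chain, was past 2-fold at 20.2 and 50.7 CPM, a ratio of 2.52 (0.991 to 7.17), but on 7 and 17 UMIs only, and its ratio was 1.34 (0.474 to 4.64) in the cells free of the 7 genes. Col6a4 to Col6a6 lie side by side on the minus strand of chromosome 9, from 105687809 to 106096783. Col27a1, a fibrillar gene of cartilage and other tissues, was at 60.5 and 50.7 CPM (21 and 17 UMIs), a ratio of 0.838 (0.415 to 1.67).

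**Figure D3:**
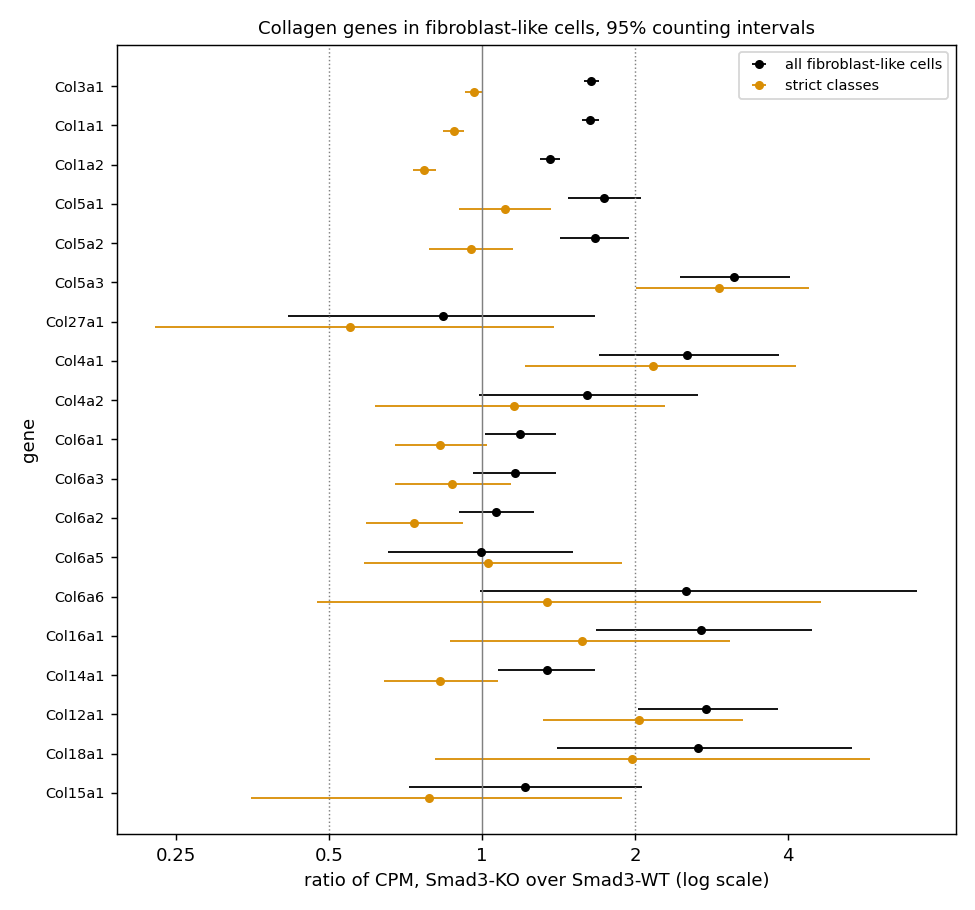
Ratio of CPM, Smad3-KO to Smad3-WT, of 19 collagen genes in fibroblast-like cells on a log axis, for the whole class (black) and for the cells free of 7 macrophage and carcinoma genes (orange), with 95% counting intervals and dotted lines at 0.5 and 2. Col5a3, Col4a1 and Col12a1 lie above 2 in both sets, and Col3a1, Col1a1 and Col1a2 lie above 1 in the whole class and below 1 in the other set.

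When each fibroblast-like cell was thinned to 500 UMIs, which left out 0 cells, Col3a1 was found in 43 of 47 Smad3-WT cells (91.5%, 79.6 to 97.6) and 59 of 60 Smad3-KO cells (98.3%, 91.1 to 99.96), against 97.9% and 100% unthinned. Col1a1 was found in 43 of 47 and 57 of 60 thinned cells, and Col1a2 in 42 of 47 and 55 of 60. Col5a3 was found in 7 of 47 (14.9%, 6.20 to 28.3) and 17 of 60 (28.3%, 17.5 to 41.4), and Col12a1 in 6 of 47 (12.8%, 4.83 to 25.7) and 5 of 60 (8.33%, 2.76 to 18.4). Col4a1 was found in 4 of 47 (8.51%, 2.37 to 20.4) and 5 of 60 (8.33%, 2.76 to 18.4). Mean UMIs per thinned cell were 0.191 and 0.350 for Col5a3, 0.149 and 0.133 for Col12a1, and 0.0851 and 0.0833 for Col4a1. The major genes were thus in nearly every cell of both libraries at equal depth, and the detection intervals of these minor genes overlap.

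Carcinoma-like cells of the Smad3-WT library had a different collagen makeup from fibroblast-like cells. The 603 cells had a median of 20324 UMIs, and the family was at 460 CPM (448 to 472; 5921 UMIs), or 456 CPM (445 to 468) in the 600 cells that were not the shallower cell of a shared barcode. Of 8 carcinoma markers 6 were detected in them, at 1474 CPM in sum, with Epcam and Perp at 0, while the macrophage list summed to 23.8 CPM and the neutrophil list to 311 CPM. Fibrillar genes made up 34.9% (33.7 to 36.1) of collagen UMIs in these 600 cells and 91.9% (91.4 to 92.3) in the Smad3-WT fibroblast-like cells taken the same way. Type IV genes made up 26.6% (25.4 to 27.7) and 0.479% (0.374 to 0.605), multiplexins 12.0% (11.2 to 12.8) and 0.294% (0.213 to 0.396), type VI genes 9.87% (9.12 to 10.7) and 5.67% (5.30 to 6.05), FACIT genes 8.57% (7.87 to 9.32) and 1.57% (1.38 to 1.79), and the network genes 6.06% (5.46 to 6.70) and 0.0753% (0.0376 to 0.135). In Smad3-KO fibroblast-like cells the fibrillar share was 93.0% (92.7 to 93.4) and the type IV share 0.618% (0.520 to 0.730).

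**Figure D4:**
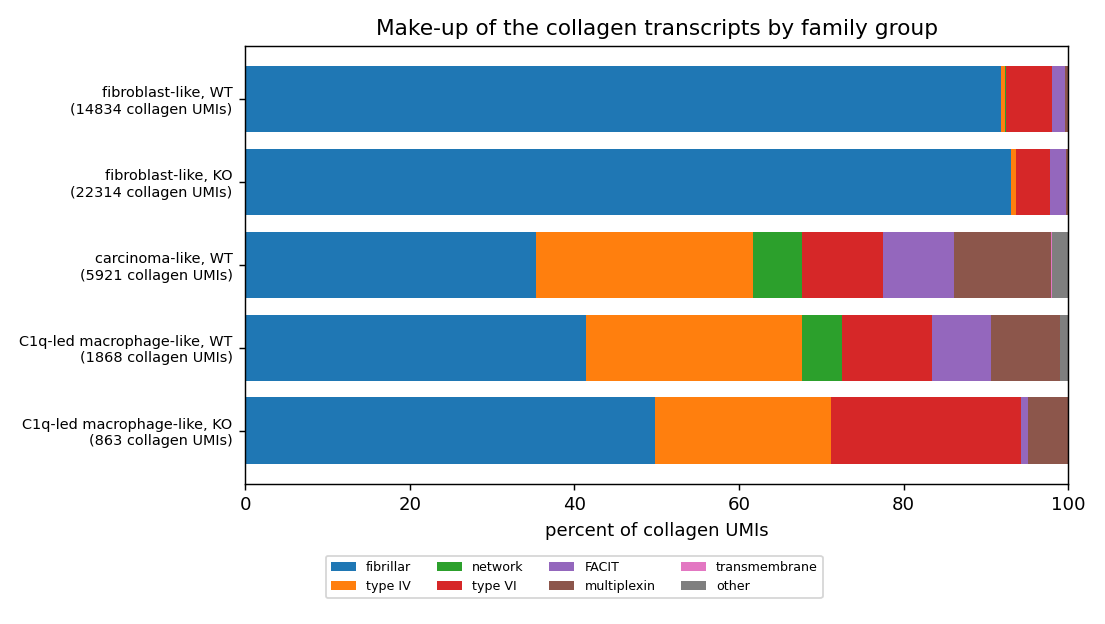
Makeup of collagen UMIs by group of the family in 5 sets of cells, as stacked percent. The fibrillar group fills over 90% of both fibroblast-like rows and 35.3% of the row of Smad3-WT carcinoma-like cells, where type IV fills 26.4%.

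Within the fibrillar group, carcinoma-like cells had transcripts of type III collagen with few of type I. In the 600 Smad3-WT carcinoma-like cells, Col3a1 had 1095 UMIs (85.0 CPM, 80.1 to 90.2), Col1a2 had 17 (1.32 CPM, 0.769 to 2.11) and Col1a1 had 5 (0.388 CPM, 0.126 to 0.906). Col3a1 per Col1a1 was 219 (93.6 to 676), against 1.41 (1.35 to 1.47) in Smad3-WT fibroblast-like cells. With the 3 shallower cells included, Col1a1 had 14 UMIs, Col3a1 had 1113 and the quotient was 79.5 (47.2 to 146). In the 503 of these 600 cells without a UMI of the fibroblast markers Dcn, Lum or Pdgfra, Col3a1 had 800 UMIs, Col1a2 11 and Col1a1 4. The gap between the type III and type I genes was thus there with and without the cells that held UMIs of Lum or Pdgfra. Of the fibroblast markers, Dcn, Fbln1 and Clec3b were at 0 in all 603 cells. The other 10 of 13 were detected, summing to 237 CPM, with 185 CPM in the median cell. The 503 cells were not chosen to lack the rest of these markers.

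Col3a1 was found in 337 of 603 Smad3-WT carcinoma-like cells (55.9%, 51.8 to 59.9) and Col4a1 in 422 (70.0%, 66.2 to 73.6). In 1817 Smad3-WT neutrophil-like cells, which should lack both and have a median of 739 UMIs, the counts were 18 (0.991%, 0.588 to 1.56) and 2 (0.110%, 0.0133 to 0.397). The carcinoma-like cells had a median of 20324 UMIs, and shares of cells depend on this depth. In CPM, Col3a1 was at 86.4 in carcinoma-like and 13.9 in neutrophil-like cells, and Col4a1 at 90.1 and 1.26. Col1a1 was found in 6 of 603 carcinoma-like (0.995%, 0.366 to 2.15) and 19 of 1817 neutrophil-like cells (1.05%, 0.631 to 1.63), and is read as background in the former. Col4a1 per Col4a2 was 2.91 (2.59 to 3.27) in carcinoma-like cells and 1.24 (0.740 to 2.10) in Smad3-WT fibroblast-like cells. Col5a1 per Col5a2 was 6.63 (5.25 to 8.47) and 0.873 (0.729 to 1.04), and Col6a1 per Col6a2 was 3.65 (2.87 to 4.69) and 1.05 (0.891 to 1.25). Chains that join in the same molecule were thus read in unlike proportions in the 2 classes.

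Levels of single members were compared between carcinoma-like and fibroblast-like cells of the Smad3-WT library, in both without the shallower cells. Of 21 members with at least 20 UMIs, 17 were lower in carcinoma-like cells by 2-fold or more, beside 24.8% of all genes, and 0 were higher by 2-fold, beside 25% of all genes. The median ratio was 0.0225, against 1.001 over all genes, and the genes detected in both classes had a median log2 ratio of -0.15. Col1a1 was 29234-fold lower (12516 to 90086), Col1a2 7582-fold (4729 to 13032), Col3a1 188-fold (176 to 201) and Col5a2 119-fold (92.7 to 155). Col14a1 had 1 UMI against 149 and Col15a1 2 against 29, which is 5582-fold (987 to 221924) and 543-fold (137 to 4698) lower. With the 3 shallower carcinoma-like and 6 shallower fibroblast-like cells included, the values were 10510-fold (6257 to 19242) for Col1a1, 4617-fold (3189 to 6958) for Col1a2 and 2781-fold (757 to 23176) for Col14a1, so the size of these folds rests on few UMIs. Col6a5 and Col27a1 had 0 UMIs in carcinoma-like cells, which against a floor of 3 UMIs over the class is at least 612-fold and at least 262-fold lower. The cells of both classes came from clusters, so these ratios describe the classes and are not a test.

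The 4 members that did not pass 2-fold were basement membrane, network and FACIT genes. Col4a1 was at 90.1 CPM in carcinoma-like and 102 CPM in fibroblast-like cells (1160 and 35 UMIs), a ratio of 0.885 (0.632 to 1.28). Col18a1 was at 54.5 and 40.7 CPM (702 and 14 UMIs), a ratio of 1.34 (0.792 to 2.46), the only ratio above 1. Col8a1 was at 27.6 and 32.0 CPM (355 and 11 UMIs), a ratio of 0.862 (0.476 to 1.74). Col16a1 was at 37.1 and 72.7 CPM (478 and 25 UMIs), a ratio of 0.510 (0.342 to 0.797), while Col4a2 was at 31.0 and 84.4 CPM, a ratio of 0.367 (0.252 to 0.556). With all cells of both classes, Col4a1 and Col4a2 together were at 0.647 (0.505 to 0.842) of their fibroblast-like level. This value was 0.270 with 30 principal components and 0.286 with another seed, settings in which the Smad3-WT fibroblast-like class took in 70 and 68 UMIs of the pericyte gene Rgs5 (0 otherwise). It was 0.246 without cells with 2 or more markers of another of the fibroblast, carcinoma, macrophage and neutrophil classes. The ratios of the 4 genes rest on 11 to 35 fibroblast-like UMIs each, and only the interval of Col4a1 lies within the 2-fold range. Of the genes lower by 2-fold, Col7a1 (119 UMIs in carcinoma-like cells) and Col24a1, a minor fibrillar gene (45 UMIs), had intervals that reach past 1, at 0.454 (0.214 to 1.15) and 0.400 (0.129 to 2.01).

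**Figure D5:**
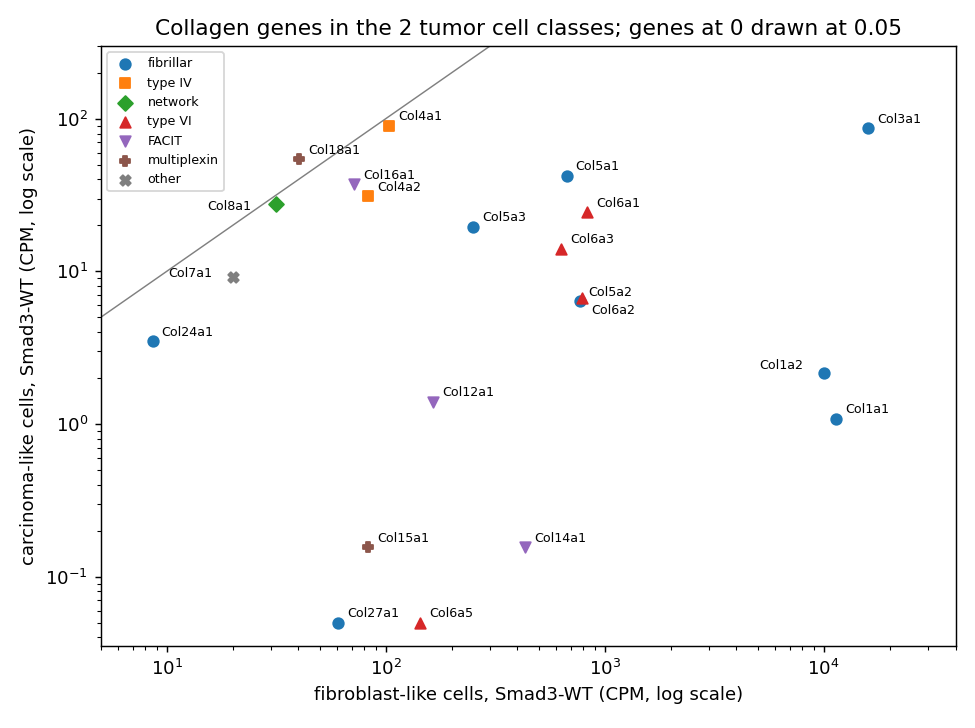
CPM of collagen genes in Smad3-WT carcinoma-like cells against CPM in Smad3-WT fibroblast-like cells, on log axes, with all cells of both classes (603 and 47), genes at 0 drawn at 0.05 and the line of equal levels. Col4a1, Col18a1, Col8a1 and Col16a1 lie near the line, and Col1a1 and Col1a2, the type I genes, lie far below it.

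The 34 Smad3-KO cells of the carcinoma-like cluster had a median of 632.5 UMIs and 19 collagen UMIs in all, and 19 of the 34 were the shallower cell of a shared barcode. Their carcinoma list summed to 505 CPM (20 UMIs, with Krt18, Krt7, Epcam and Perp at 0), below their neutrophil list at 1868 CPM and macrophage list at 782 CPM. The carcinoma list was at 113 CPM in Smad3-KO fibroblast-like cells, 190 CPM in the C1q macrophage-like cluster and 3.04 CPM in neutrophil-like cells. With 20 UMIs, their own markers are too sparse to bear out the name of the cluster. In the other 15 cells there were 17 collagen UMIs, 12 of them of type IV genes, and they were not compared with the Smad3-WT cells of the cluster.

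The macrophage-like cluster led by C1q genes held most of its collagen UMIs in cells that also held markers of other classes. In Smad3-WT, 368 cells had 1868 collagen UMIs, or 408 CPM (390 to 427). The 107 cells with 10 or more UMIs of Krt8, Krt18, Wfdc2 and Rhox5 held 61.1% (58.9 to 63.4) of them at 448 CPM (423 to 475). The 82 cells with 1 to 9 held 25.5% (23.5 to 27.5) at 499 CPM (456 to 546). The 179 cells with 0 held 13.4% (11.9 to 15.01) at 232 CPM (204 to 263). These sets also differed in depth, with medians of 22187, 11615 and 5824 UMIs, and its part was not tested. Col3a1 had 252 and Col1a1 8 UMIs in the 107 cells, 133 and 4 in the 82 cells, and 32 and 13 in the 179 cells. The 368 cells also held 115 UMIs of the 6 pericyte or smooth muscle markers, at up to 7910 CPM in a single cell. They were not split by these markers here. In Smad3-KO, 862 of 863 collagen UMIs of the cluster lay in 7 of 40 cells that had 2 or more pericyte markers, with 106 UMIs of Rgs5, 23 of Notch3 and 0 of C1qa, C1qb and C1qc. The other 33 cells held 1 collagen UMI.

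Those 7 cells had collagen at 24917 CPM (23281 to 26637) with a makeup of their own. Col1a1 had 144 UMIs, Col4a1 122, Col3a1 119, Col1a2 90, Col6a2 71, Col6a1 65, Col6a3 63, Col4a2 62, Col5a2 30, Col18a1 23 and Col15a1 19. Over the 40 cells, type IV genes made up 21.3% (18.6 to 24.2) of collagen UMIs and type VI genes 23.1% (20.3 to 26.0), against 0.618% and 4.13% in Smad3-KO fibroblast-like cells. Pericytes, the cells that wrap capillaries, share a basement membrane with endothelium. The 7 cells were singled out after their values were seen, and they are too few for a comparison between genotypes.

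The macrophage-like cluster led by Ppbp had 75 collagen UMIs in 762 Smad3-WT cells (28.5 CPM, 22.4 to 35.7) and 48 in 57 Smad3-KO cells (326 CPM, 240 to 432). In these Smad3-KO cells Col3a1, Col1a1 and Col1a2 had 14, 14 and 13 UMIs, each found in 2 cells only. The levels of neutrophil-like cells are given as the background. They had 79 collagen UMIs in 1817 Smad3-WT cells, or 49.8 CPM (39.5 to 62.1), and 65 in 1078 Smad3-KO cells, or 49.4 CPM (38.1 to 62.9). These levels were 0.00117 (0.000924 to 0.00146) of that of the fibroblast-like cells of the same library in Smad3-WT and 0.000742 (0.000572 to 0.000946) in Smad3-KO. For Col3a1 the quotients were 0.000867 and 0.000578, for Col1a1 0.00110 and 0.000610, and for Col1a2 0.000754 and 0.000278. Some members had higher quotients on few UMIs. Col15a1, with 4 and 6 neutrophil-like UMIs, was at 0.0302 (0.00772 to 0.0861) and 0.0449 (0.0154 to 0.108). Col4a2, with 3 and 5, was at 0.0227 (0.00442 to 0.0731) and 0.0283 (0.00877 to 0.0711). The reason was not tested. Col3a1 per Col1a1 in neutrophil-like cells was 1.10 (0.573 to 2.12) in Smad3-WT and 1.33 (0.649 to 2.80) in Smad3-KO, intervals that hold the values of fibroblast-like cells and not that of Smad3-WT carcinoma-like cells. The level was 378 CPM in Smad3-WT when classes were set from the markers of each cell. No level of collagen in neutrophil-like cells is read as expression.

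Col3a1, Col1a1 and Col1a2 also led the collagen averages in the deposited table of 13 clusters. The table gives a mean per cluster over both libraries with no error, it lists 36 of the 44 members, and the sum of members was highest in cluster 2 at 6.67, of which Col3a1 was 2.44, Col1a1 1.63 and Col1a2 1.28. Cluster 11, which had Krt8 at 0.565 and Dcn at 0, had a sum of 0.528, with Col4a1 at 0.116, Col3a1 at 0.0738, Col18a1 at 0.0673 and Col1a1 at 0.000146. Of the 24 members with at least 20 UMIs, 18 had their highest average in cluster 2, Col8a1 and Col7a1 in cluster 11, and Col27a1, Col11a2, Col6a6 and Col6a4 in clusters 13, 8, 12 and 8. Cluster 2 also had Krt8 at 0.313 and C1qa at 0.223, so it held transcripts of more than 1 class. Its clusters were not matched to the classes used here. Sums were 0.389 in cluster 12 and 0.232 in cluster 7, and 0.0230 to 0.112 in the remaining 9.

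Genes that act on collagens were read from a list of 68 genes for chain modification, processing and crosslinking, matrix partners, receptors, collagenases and TGF-β signaling, of which 67 were in the files. Of 50 with at least 20 UMIs in fibroblast-like cells, 9 had a Smad3-KO to Smad3-WT ratio of at least 2 and 4 a ratio of at most 0.5, with a median of 1.38, beside 9.36% and 9.3% of all genes. In the cells free of the 7 macrophage and carcinoma genes the counts were 6 and 2 of 42, with a median of 0.927, beside 9.99% and 6.29%. Plod2, P3h3, Lox, Loxl2 and Tnc were among the 6, and the 2 were Thbs1 and Thbs2.

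Among the enzymes, Plod2, which hydroxylates lysines for stable crosslinks, was at 54.7 CPM in Smad3-WT and 197 CPM in Smad3-KO (19 and 66 UMIs), a ratio of 3.60 (2.13 to 6.35), and of 4.20 (1.83 to 11.9) in the cells free of the 7 genes. Lox, the crosslinking lysyl oxidase and the highest of the processing list in Smad3-KO, was at 253 and 853 CPM (88 and 286 UMIs), a ratio of 3.37 (2.64 to 4.32), and of 2.02 (1.502 to 2.77) in those cells. Loxl2, a relative of Lox, had a ratio of 3.39 (2.56 to 4.55), and of 2.55 (1.74 to 3.86). Loxl1, another relative, had 2.29 (1.82 to 2.89), and 1.73 (1.28 to 2.38). P3h3, a prolyl hydroxylase, had 2.26 (1.34 to 3.93), and 2.06 (0.997 to 4.78). Serpinh1, the collagen chaperone, was at 1267 and 1369 CPM, a ratio of 1.08 (0.946 to 1.23), and of 0.773 (0.654 to 0.916). Plod2, Lox, Loxl1 and Loxl2 thus had intervals above 1 in both sets of cells, while the chaperone did not.

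Of the matrix partners, Tnc, the adhesion-modulating tenascin C, was at 282 CPM in Smad3-WT and 1076 CPM in Smad3-KO (98 and 361 UMIs), a ratio of 3.82 (3.04 to 4.82), and of 9.63 (5.30 to 19.5) in the cells free of the 7 genes. The latter ratio rests on 11 Smad3-WT and 269 Smad3-KO UMIs. Thbs1 and Thbs2, thrombospondins that bind matrix, were lower, with ratios of 0.313 (0.246 to 0.395) and 0.420 (0.318 to 0.550), and of 0.255 (0.194 to 0.334) and 0.339 (0.245 to 0.468) in those cells. Sparc, a collagen-binding protein and the highest matrix partner, was at 6852 and 9235 CPM, a ratio of 1.35 (1.28 to 1.42) that was 0.789 (0.740 to 0.842) in those cells. Mrc1, a macrophage receptor that takes up collagen, had 60 UMIs in Smad3-WT against 1 in Smad3-KO, a ratio of 0.0173 (0.000430 to 0.0999). Only 5 and 0 UMIs of Mrc1 were left in those cells. Tgfb1, the TGF-β ligand, had 44 and 20 UMIs, a ratio of 0.471 (0.263 to 0.816) that was 0.558 (0.251 to 1.28) in those cells.

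Smad7, the inhibitory Smad, had a ratio of 2.46 (1.03 to 6.495) on 8 and 19 UMIs, and Smad3 one of 2.76 (1.03 to 8.62) on 6 and 16 UMIs of its 5′ end, and neither had 20 UMIs in the cells free of the 7 genes. Itgb1, the common integrin chain of collagen receptors, had a ratio of 1.41 (1.04 to 1.91), and of 1.44 (0.936 to 2.30) in the cells free of the 7 genes. Mmp2, the highest collagenase-group gene, had one of 1.37 (1.20 to 1.56) that was 0.776 (0.667 to 0.904) in those cells. In Smad3-WT carcinoma-like cells, 41 of 58 listed genes with at least 20 UMIs were at or below 0.5 of their fibroblast-like level, beside 24.8% of all genes, and P3h2 and Ddr1 had 75 and 151 UMIs against 0 fibroblast-like UMIs, for which the floor of 3 UMIs gives no fold of 2 or more. None of the other listed genes was at least 2-fold higher, beside 25% of all genes. Lox was at 0.00245 and Sparc at 0.0427 of that level, whereas Pcolce, the enhancer of fibrillar propeptide removal, was at 0.958 (0.816 to 1.13).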

How the data were processed

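Members and lists were chosen with earlier results of these data known. Reads were processed by the authors with Cell Ranger 3.0.2 on mm10, and the deposited table gives unnormalized UMI counts per gene and barcode. Each barcode suffix was given its genotype from the authors' deposited WT and KO averages, a signal per gene that the suffix means match to within 3.58e-08. The authors' deposited cluster averages were read as they stand, and their fold changes and p-values were not used.

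Kept cells had at least 200 genes, under 10% mitochondrial UMIs and over 500 UMIs, with no upper limit (a limit of 20000 leaves 3520 and 2433 cells). Louvain clusters (resolution 1, seed 1) came from 2000 variable genes scaled to 10000 UMIs per cell and logged, 100 principal components and 15 neighbours in scanpy 1.11.5 and igraph 0.11.9. A class name needed 3 markers in at least 10% of cells at 2 times the level of other cells. No doublet caller was run. Calculations used numpy 2.4.6, scipy 1.17.1, pandas 2.3.3 and scikit-learn 1.9.0 and were tested on simulated data. The text names members with at least 20 UMIs and, of the pathway list, genes past 2-fold in fibroblast-like cells and the highest gene of each sublist. A gene that this rule names is not reported here. Other genes were named after their values were seen. Alternatives changed the cell filter, clustering, classes, totals, scaling and shared barcodes.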

Additional observations from a re-analysis of the deposited data

How the results depend on the processing

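No paired analysis was possible because each genotype had 1 library. At resolution 0.1 no fibroblast-like, carcinoma-like or macrophage-like class formed, so that setting gave no value for them. Of 16 alternatives, 10 left the fibroblast-like ratio of Smad3-KO to Smad3-WT within its counting interval, 5 moved it and 1 reversed it, and the all-cells ratio, which settings of clusters and classes cannot move, stayed within its interval in 3 of the other 9 alternatives and above 1 in all 9. Where a value moved, the cause was not tested. The cells free of 7 macrophage and carcinoma genes, the fibroblast-like cells of 2000 UMIs or more, and the removal of 1 or both cells of a shared barcode were chosen after seeing the data. Shares below are of collagen UMIs, in the order fibroblast-like Smad3-WT, carcinoma-like Smad3-WT and fibroblast-like Smad3-KO, where each moved. Their total is that of all cells kept in the setting, with cells taken out of a class still counted in it.

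One setting kept the fibroblast-like cells free of the 7 genes. It left out carcinoma-like cells with a UMI of Dcn, Lum, Pdgfra, C1qa, C1qb or C1qc, and neutrophil-like cells with Dcn, Lum or Pdgfra. In it the fibroblast-like ratio was reversed at 0.902 with 3 genes past 2-fold, and the shares were 38.8%, 18.7% and 86.5%. The fibrillar shares of fibroblast-like cells were 93.7% and 93.4%. The Smad3-WT levels were 74020 CPM (fibroblast-like) and 433 CPM (carcinoma-like). The type IV ratio of carcinoma-like to fibroblast-like cells was 0.494, and the Smad3-WT neutrophil-like quotient was 0.000668. The next setting left out cells with 2 or more markers of another of the fibroblast, carcinoma, macrophage and neutrophil classes. In it the ratio was 1.004 with 2 genes past 2-fold, the shares 9.48%, 9.50% and 36.6%, the Smad3-WT fibrillar share 92.5%, the levels 61938 and 407 CPM, the type IV ratio 0.246, Col1a1 per Col1a2 1.23 (Smad3-WT) and 1.29 (Smad3-KO), and the Smad3-WT quotient 0.000832.

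With cells under 20000 UMIs only, the ratios were 3.80 (all cells) and 1.43 (fibroblast-like), the Smad3-WT shares 79.7% and 18.8%, the fibrillar share of carcinoma-like cells 44.3% and the levels 46559 and 676 CPM. With no filter, the all-cells ratio was 5.71, the shares 63.7% and 28.6% and the carcinoma-like level 487 CPM, and with the filter of MetaCell the shares were 64.2% and 26.5%. With 30 principal components, the fibroblast-like ratio was 1.67, the shares 66.0%, 27.0% and 99.0%, the fibrillar shares 90.8% and 91.4%, the fibroblast-like level 37036 CPM and the type IV ratio 0.270. With another seed, the shares were 65.8%, 27.1% and 98.9%, the fibrillar shares 91.1% and 91.4%, the level 40904 CPM and the type IV ratio 0.286. At resolution 0.1 the neutrophil-like level was 64.1 CPM.

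With classes from the markers of each cell, the Smad3-WT shares were 53.4% and 24.8%, the fibrillar share 92.7%, the levels 40849 CPM (fibroblast-like) and 378 CPM (neutrophil-like), and the quotients 0.00925 (Smad3-WT) and 0.00403 (Smad3-KO). Averaged over cells, the ratios were 2.29 and 1.32, the levels 49783 and 656 CPM, the type IV ratio 0.487 and Smad3-WT Col1a1 per Col1a2 1.20. In that setting 4 collagen genes were past 2-fold in fibroblast-like cells, against 6 in the main setting. With totals that leave out collagen, mitochondrial and ribosomal protein genes, the ratios were 5.18 and 1.52, the levels 58148 and 731 CPM and the Smad3-WT quotient 0.000896, and with median-of-ratios scaling the quotients were 0.00157 and 0.00113. Without both cells of each shared barcode, the all-cells ratio was 4.37, the shares 67.1%, 23.7% and 93.7% and the carcinoma-like level 472 CPM. With fibroblast-like cells of 2000 UMIs or more, the fibroblast-like shares were 63.5% and 91.5%. Without the cell with the most collagen UMIs in each library, the all-cells ratio was 5.72, the shares 62.9%, 27.5% and 94.9% and the fibroblast-like level 40373 CPM. Depth limits the members under 20 UMIs and the Smad3-KO carcinoma-like cells.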
